A study of Oryctolagus cuniculus with 54 samples.

Results

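A set of 120 rabbit lung genes was examined that stood low in fetal pups of day 28 (F28) and in newly delivered preterm pups. The genes stood high in the days after delivery, in preterm and in term pups alike. The 120 genes were taken from 29587 listed in the count table, of which 8313 were expressed highly enough after delivery to be ranked. They were chosen from the 12 libraries of sequencing run 2. In that run each gene received a mean log2(CPM + 1) per time point, where CPM is the count scaled to 1000000 counts in the library. A gene was kept if its lowest mean among P3, P7 and T35 reached 2.6. The genes were then ranked by that lowest mean minus the higher of the means at P0 and F28, and the 120 largest gaps were taken. The values of run 2 are therefore a description of the choice and carry no test.

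All animals were New Zealand White rabbits with no genetic change or drug named in the labels. Fetal (F) pups were taken by C-section on gestational day 20, 23, 25, 27, 28 or 29 (F20 to F29) and their lungs were collected at once. Natural birth on day 31 gave the term (T) pups, which were reared by the doe in room air. T31 lungs were taken at birth, and T35, T37 and T42 lungs at a postnatal age of 4, 6 and 11 days. Preterm (P) pups were delivered by C-section on day 28 and kept in incubators at 21% oxygen. They received a milk replacer through an orogastric tube, and their lungs were collected 1 h after delivery (P0), after 3 days (P3) or after 7 days (P7). Delivery route, housing and feeding thus differed between preterm and term pups together with maturity, and their parts cannot be told apart. P7 and T35 pups were both collected 35 days after conception. Groups held 3 animals, except F20, F23 and T37 with 4 and T31 with 6. The right lung was homogenized whole, or both lungs at F20 and F23.

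Birth turns the lung from a fluid-filled organ into one that exchanges gas. Lung fluid is cleared, surfactant spreads over the air surface, blood flow rises, and oxygen, microbes and inhaled particles reach the epithelium. Thin septa divide the saccules into alveoli, which in rabbits starts shortly before term birth and goes on in the days that follow. The resident immune cells also settle in those days. A whole lung homogenate holds RNA of epithelial, endothelial, mesenchymal, airway and immune cells together, so that more cells of a type and more RNA per cell cannot be told apart. Libraries were read from the 3′ ends of messenger RNAs, so that a count does not scale with transcript length. The table names genes by Ensembl identifier and does not pair them with symbols. The genes are therefore described by their rank in the choice and not by their function, and the lung was not checked against cell type markers.

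The 54 libraries of 45 animals held 5771693 to 8073755 counts each. Runs differed in level for some of the genes. Over the 5 animals read in both runs 1 and 3, 6 of the 120 genes were on average more than 1 log2 unit higher in run 3 (3.5% of all 15440 genes tested) and 8 were more than 1 log2 unit lower (14.1%). Runs 2 and 3 lay closer, with 0 genes of the set over 1 log2 unit higher in run 3 (0.285%) and 2 over 1 log2 unit lower (0.699%). Values are therefore compared within a run or in a model with the run as a term, except where CPM of different runs are listed. The screen for animals far from their group, given further below, pooled the T31 newborns of runs 1 and 3. Among the newborns of T31, T31_15 in run 1 and T31_18 in run 3 had the lowest share of counts in the set. A count that moved by more than 1.5 times without either of them is given also without it.

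In run 2 the gene at rank 1, ENSOCUG00000036699, had 0.898 and 0 CPM in the F28 libraries and 0.415, 0.674 and 0.289 CPM at P0. At P3 it had 26.5, 12.8 and 28.4 CPM, at P7 24.7 and 37.8 CPM, and at T35 21.7 and 25.8 CPM. The gap was 3.94 log2 units, the largest of the ranking. The gene at rank 2, ENSOCUG00000006893, had at most 0.692 CPM in any F28 or P0 library, and 5.03 to 18.3 CPM in the P3, P7 and T35 libraries. The median gap of the 120 genes was 1.18, 93 genes had a gap over 1 and 12 a gap over 2. The limit of the choice was not a break in the ranking. The next to last gene had a gap of 0.90 and the last, at rank 120, a gap of 0.89, while the 2 genes just outside also had gaps of 0.89. Rank 120 stood at 8.36 in its lowest high group and 7.47 in its highest low group on the log2(CPM + 1) scale.

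The size of the gain differed between the groups that defined it. In run 2 the median difference from F28 was 2.33 log2 units at P7, 1.63 at P3 and 1.55 at T35, against -0.01, -0.04 and -0.13 for all genes that passed the expression limit. T35 was the lowest of the 3 high groups in 71 genes, P3 in 42 and P7 in 7. P7 was above T35 in 97 of the 120 genes and by more than 1 log2 unit in 44 (2.24% of all tested genes), while T35 exceeded P7 by that much in 1 gene (0.738%). The median difference of P7 from P3 was 0.66, and P7 was above P3 in 109 genes. P0 lay close to F28, with a median difference of 0.08. P0 was over 1 log2 unit above F28 in 3 genes (0.913%) and that far below it in 0 genes (0.635%). These counts use the same values as the choice, so nothing is read from them.

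At T35 in run 2 the genes ranged from 5.13 to 2070 CPM with a median of 23.2 CPM. There were 22 genes under 10 CPM, 80 between 10 and 100 CPM and 18 at 100 CPM or more. The 5 genes above 1000 CPM, which were those at ranks 52, 17, 63 and 23 and the one next to last in rank, set much of the summed level of the set. The gene at rank 52 had a mean of 141 CPM at F20 in run 3, 713 CPM at T31, 1680 CPM at T37 and 1990 CPM at T42. The gene at rank 63 went from 29 CPM at F20 to 913 CPM at T31 and 2940 CPM at T42.

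The share of a library's counts that fell in the 120 genes is shown by time point in the plot of library shares. In run 3 it was 0.143% to 0.203% at F20 and 0.189% to 0.235% at F23. In run 1 it was 0.203% to 0.295% at F25, 0.228% to 0.338% at F27, 0.383% to 0.452% at F28 and 0.460% to 0.531% at F29. The 6 newborns of T31 spread more widely, with 0.822%, 1.13% and 0.665% in run 1 and 0.755%, 1.07% and 0.625% in run 3. In run 1 every newborn was above every F25, F27 and F29 library. In run 3 every newborn was above every F20 and F23 library and below every T37 and T42 library. F28 and T35 libraries other than those of F28_7 and T35_1 come from animals of the choice, so nothing is read from their place. T37 libraries held 1.31% to 1.54% and T42 libraries 1.67% to 1.80%. In run 2 P0 pups held 0.431% to 0.465%, P3 pups 1.20% to 1.43% and P7 pups 1.95% and 1.88%. P7_1, a preterm pup of run 3 that was not used in the choice, held 1.97%, above every other library of the series. Without the 5 most abundant genes the shares were 0.0951% to 0.141% at F20, 0.284% to 0.569% at T31, 0.749% to 0.809% at T42 and 1.02% in P7_1.

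**Figure D1:**
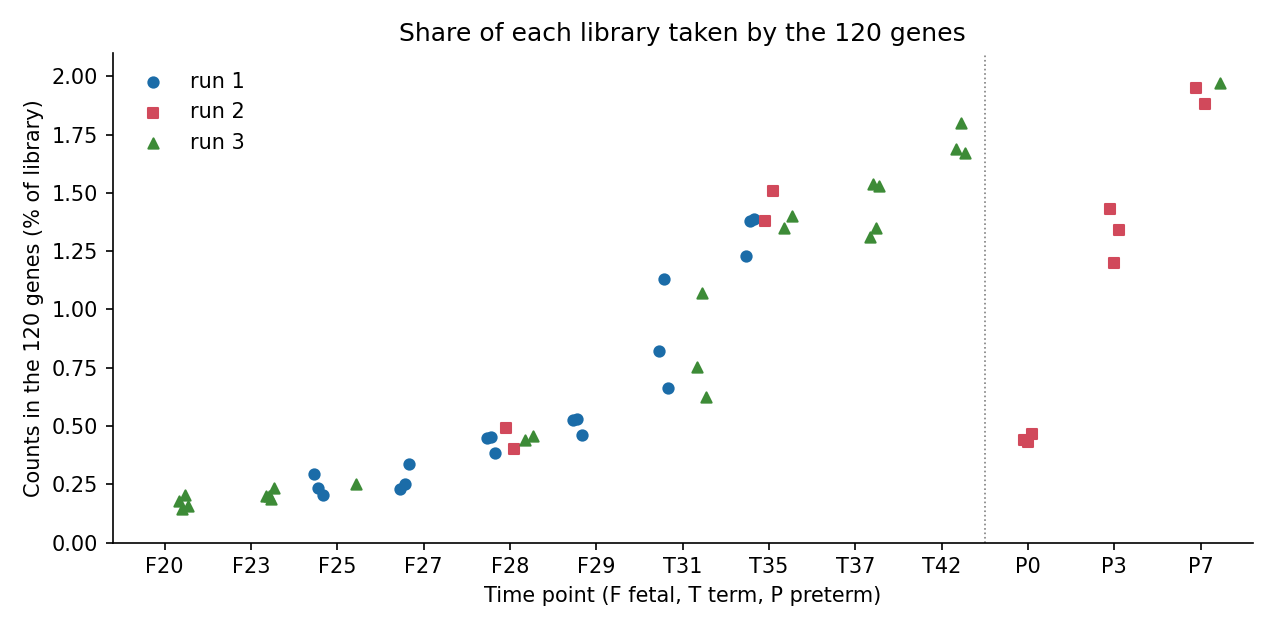
Percent of each library's counts that fell in the 120 genes, by time point, 1 point per library and 1 colour and marker per run. The horizontal axis orders fetal and term time points by age, with the preterm groups to the right of the dotted line. F20 libraries lie at 0.143% to 0.203%, T42 libraries at 1.67% to 1.80%, and the preterm libraries at P7 at 1.88% to 1.97%.

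The animals that chose the genes were read again in other runs, which repeats the measurement and not the animals. In run 1 the T35 and F28 animals of the choice differed by a median of 1.51 log2 units, with all 120 genes higher at T35. A T35 and an F28 animal that had no part in the choice, T35_1 and F28_7, were also read in run 1. T35_1 was above F28_7 in 118 of the 120 genes, by more than 1 log2 unit in 81 (4.31% of all tested genes), with a median of 1.31 log2 units. P7_1 exceeded F28_7 in run 3 in all genes of the set but 1, by more than 1 log2 unit in 107 (6.09%), with a median of 2.07. These are differences between 1 animal and 1 animal and have no replicate check.

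The tests were made in 33 animals that took no part in the choice, namely all fetal and term animals except 2 at F28 and 2 at T35, and the preterm pup P7_1. A gene was called when its fold change was above 2 and its adjusted p at most 0.05 in edgeR's quasi-likelihood test with the run in the model. All 120 genes were among the 15440 that passed the filter on low counts. The first question was whether the gain held in term animals outside the choice.

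T37 and T42 pups were compared with the mean of F25, F27 and F29 fetuses. In the pups 102 of the 120 genes were higher (4.29% of all genes tested) and 0 were lower (1.8%). F25 and F27 come before F28, the fetal group of the choice, so that a rise before birth also counts as gain here. At F29 the fitted median of the set was already 0.67 log2 units above that fetal mean. At an unadjusted p under 0.05, 113 genes passed (25.8% of all genes tested), 0 of them with lower levels after birth. limma-voom called 105 genes higher and DESeq2 108, and both called 0 lower. The shares of all genes that these 2 methods called are not given here. The median fold change was 2.01 on the log2 scale, the middle 50% of genes ran from 1.68 to 2.89, and the median of all genes tested was 0.02. Of the 18 genes not called, 12 had a log2 fold change over 1. The T37 and T42 pups were all read in run 3, while 8 of the 9 fetal libraries were read in run 1, so that the size of this change rests on the run term. Within run 3 alone, 93 genes had every T37 and T42 library above every F20 and F23 library (10.5% of all genes tested).

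The largest gains, at ranks 2 and 1, were in genes with almost no fetal counts. Rank 1 had 0 to 0.347 CPM at F25 and F27 in run 1 and 0.322 to 0.917 CPM at F29. It had 13.1, 19.3, 10.7 and 10 CPM in the T37 libraries and 29.6, 25.9 and 49.8 CPM in the T42 libraries. The groups did not overlap, and the fitted log2 fold change was 5.97 (SE 0.62, adjusted p = 4.91e-07, edgeR's quasi-likelihood test). Summed over libraries, 1164 counts in the 7 postnatal libraries stood against 24 in the 9 fetal ones. The ratio of the pooled rates was 55.3, with an exact 95% interval of 37 to 86.7 that covers counting error only.

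Rank 2 had 7 counts in all over the 9 fetal libraries and 1163 in the 7 postnatal ones, a ratio of pooled rates of 189 with an exact 95% interval of 91.6 to 472. Its fitted log2 fold change was 9.44 (SE 1.28, adjusted p = 1.79e-05, edgeR's quasi-likelihood test), a value that depends on how near-zero counts are treated. The T37 libraries of this gene held 15.7, 2.25, 14 and 16.2 CPM and the T42 libraries 38.8, 10.9 and 57.7 CPM. The animal with 2.25 CPM, T37_27, had the highest value of its group for rank 1.

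The next largest gains among called genes were 4.75 log2 units at rank 9 (SE 0.38), 4.09 at rank 5 (SE 0.66) and 3.94 at rank 31 (SE 0.97). Rank 5 was at 0 CPM in all 4 F20 libraries and at 0.138 to 0.746 CPM at F23, which leaves it near or below the detection limit of 3 counts. It had 3.54, 11 and 3.48 CPM at F29 in run 1 and 11.3, 82.4 and 27.3 CPM in the newborns of that run, without overlap. Rank 31 was less even, with 8.49, 1.48 and 0 CPM at F25 in run 1 and 7.46 to 11.1 CPM at T37 in run 3. Over the set, 3 genes had 30 fetal counts or fewer, and without them the median gain was 1.98. Only the gene at rank 113 had a fitted change below 0, at -0.01 (SE 0.43).

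The rise was spread over several steps of development, as the plot of fitted levels shows. Relative to the mean of F25, F27 and F29, the median of the 120 genes was -0.93 at F20, -0.56 at F23, -0.33 at F25 and -0.28 at F27. It was 0.67 at F29, 1.30 at T31, 1.88 at T37 and 2.20 at T42. The single animals at F28 and T35 gave 0.45 and 1.91, and P7_1 gave 2.79. The median of all genes tested stayed between -0.06 and 0.04 at every time point.

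**Figure D2:**
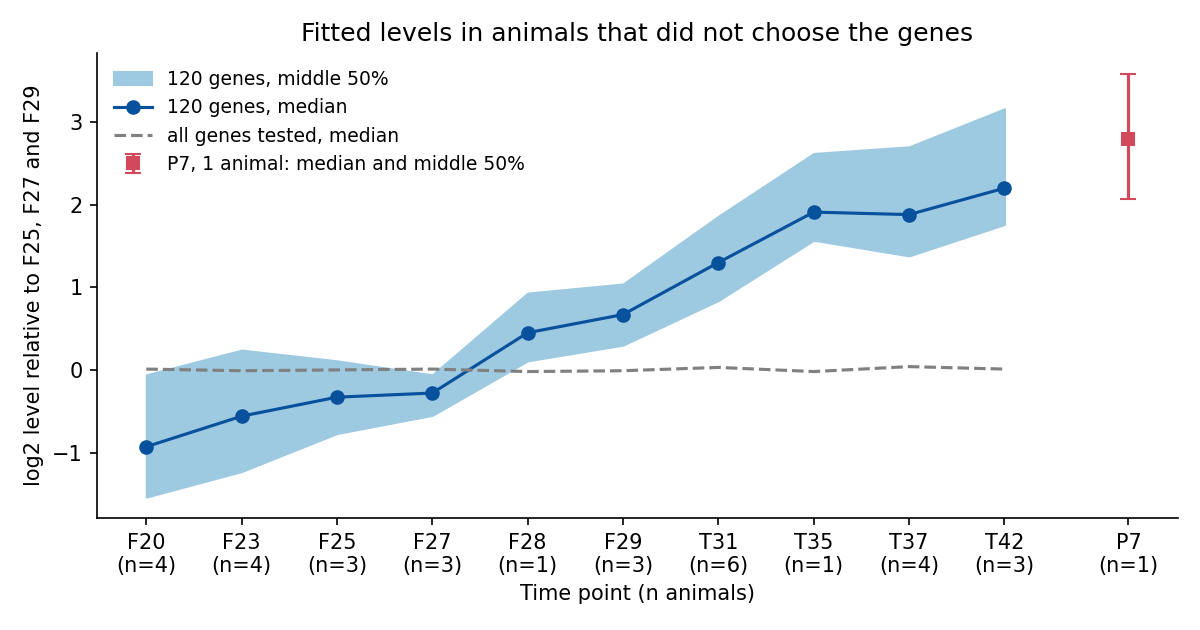
Fitted log2 level of the 120 genes relative to the mean of F25, F27 and F29, by time point, in the 33 animals outside the choice. The line and band give the median and the middle 50% of the 120 genes, the dashed line the median of all genes tested, and the square with bars P7_1. The median of the set goes from -0.93 at F20 to 2.20 at T42.

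Before birth, from F25 to F29, 37 of the 120 genes rose (3.69% of all genes tested) and 1 fell (2.52%), with a median change of 0.94 log2 units. Without F25_18 the number that rose was 22, and the share of all genes called without that animal is not given here. In run 1 alone every F29 library was above every F25 library in 54 genes (12.1%). The largest change was at rank 17, one of the most abundant genes of the set. It had 32.9, 41.3 and 40.6 CPM at F25, 104, 73.6 and 118 CPM at F27 and 924, 941 and 523 CPM at F29, all in run 1. F29 lay far above both earlier groups, and the log2 fold change from F25 was 4.54 (SE 0.34, adjusted p = 3.23e-09, edgeR's quasi-likelihood test). At T31 this gene had 524 to 1440 CPM, a range that overlapped F29, and at T37 1240 to 2840 CPM.

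The next 4 genes rose by 3.78 to 3.93 log2 units before birth. Rank 62 had 0.842 to 2.25 CPM at F25 and 12.9 to 29.4 CPM at F29, a log2 fold change of 3.93 (SE 0.63). Rank 113, ENSOCUG00000026988, had 3.81, 10.3 and 10.4 CPM at F25 and 76.9, 74.8 and 109 CPM at F29 in run 1, a change of 3.87 (SE 0.52). Rank 112 changed by 3.86 (SE 0.80), from 0.337 to 0.656 CPM at F25 to 3.82 to 5.3 CPM at F29 in run 1. Rank 16 changed by 3.78 (SE 0.69), from 0.52 to 3.94 CPM to 13.9 to 32.7 CPM. In run 3 rank 16 had 22.3 to 82 CPM at T31 and 173 to 274 CPM at T42, and rank 112 had 2.58 to 3.52 CPM and 6.13 to 9.04 CPM. Neither gene was called in any of the steps after F29. For these 4 genes the adjusted p in edgeR's quasi-likelihood test was 0.00183 or lower.

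The gene that fell before birth was at rank 84, ENSOCUG00000006783. It had 33.4, 29.5, 44.8 and 28.2 CPM at F20 and 21.8 to 39.9 CPM at F23 in run 3. In run 1 it had 19.9, 23.9 and 20.6 CPM at F25 and 7.57, 10.5 and 13.3 CPM at F29. F29 lay below F25 without overlap, and the fitted change was -1.43 (SE 0.42, adjusted p = 0.03, edgeR's quasi-likelihood test). The size depended on F25_13, which had 23.9 CPM in run 1 and 38.4 CPM in run 3. Within run 1 alone the change was -0.94, without F25_13 it was -0.79, and neither was called. In run 3 the newborns had 3.39, 4.08 and 7.31 CPM and the T37 pups 29.5, 39.7, 48.4 and 38.2 CPM. The rise from T31 to T37 was 2.29 (SE 0.37, adjusted p = 0.000163, edgeR's quasi-likelihood test). Within run 3 the newborns were thus below every F20 and F23 library and below every T37 library.

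From F29 to T31, across natural birth itself, 0 genes of the set were called higher or lower (0.00648% of all genes tested in each direction). At an unadjusted p under 0.05, 39 genes passed, 38 of them higher and 1 lower, against 12.7% of all genes tested. DESeq2 called 15 higher and limma-voom 0. The median change was 0.55 and 102 of the 120 genes had a change above 0. Without T31_15 the number called higher was 16, and without T31_18 it was 10. These were the newborns with the lowest shares of counts in the set. The shares of all genes called without these animals or with DESeq2 are not given here. The counts are therefore not read as a trait of the set. In run 1, 29 genes had every T31 library above every F29 library (6.7%).

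The newborns were unlike each other. In run 1, T31_10 was above every F29 library in 96 of the 120 genes (29.7% of all tested genes), T31_1 in 56 (30.4%) and T31_15 in 57 (26.7%). In run 3, T31_11 was below every T37 library in 52 genes (30.9%), T31_4 in 83 (33.3%) and T31_18 in 92 (41%). The gene at rank 120, plotted with 3 others, also varied between newborns. It had 557 and 666 CPM in T31_1 and T31_10 and 608 and 621 CPM in T31_4 and T31_11. T31_15 had 216 CPM and T31_18 had 166 CPM. All libraries of F20 to F29 held 129 to 189 CPM, so that T31_18 lay within the fetal range.

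In the 6 days after term birth, from T31 to T37, 20 genes of the set rose (3.67% of all genes tested) and 1 fell (1.68%), with a median change of 0.56. In run 3 alone every T37 library was above every T31 library in 45 genes (13.4%). Rank 9 had 7.6, 9 and 9.54 CPM in the newborns of run 3 and 108, 106, 52.4 and 93.3 CPM at T37, and it rose by 3.15 log2 units (SE 0.33). Its newborns were close to one another and far below every T37 pup. Rank 39 had 1.9 to 2.95 CPM in the newborns of run 3, 17.2 to 27.7 CPM at T37 and 32.2 to 49.7 CPM at T42, and it rose by 3.07 from T31 to T37 (SE 0.46). At F20 this gene had 3.01 to 8.39 CPM, and its newborns of run 1 had 0.89 to 3.19 CPM. For both genes the adjusted p was 7.23e-05 or lower in edgeR's quasi-likelihood test. Rank 1 rose by 1.92 (SE 0.48, adjusted p = 0.00823, edgeR's quasi-likelihood test), from 0.95, 4.64 and 3.59 CPM in the run 3 newborns.

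The changes at ranks 2 and 77 were as large but less even. Rank 2 rose by 3.67 (SE 0.99) and rank 77 by 3.24 (SE 0.97), and neither was called by limma-voom. Rank 77 had 1.22, 2.53 and 0.991 CPM in the run 3 newborns and 1.33, 19.1 and 34.8 CPM in those of run 1. Its T37 libraries held 43.9, 26.6, 25.1 and 4.29 CPM, and P7_1 held 2.31 CPM. This gene varied from animal to animal at most time points, and its P3 pups had 2.81, 41.1 and 23.1 CPM.

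The gene that fell after birth was at rank 113. In run 3 the newborns had 288, 382 and 259 CPM and the T37 pups 159, 132, 146 and 146 CPM, without overlap. The change was -1.19 (SE 0.39, adjusted p = 0.0407, edgeR's quasi-likelihood test). The call was lost without T31_4, T31_11 or T31_18, without any 1 of the 4 T37 animals, and with scaling to library totals. The same gene had 24.9 to 59 CPM in the newborns of run 1. Its level differed between runs also in the same animals, with 43.9 and 51.6 CPM in T35_6 and T35_11 in run 1, 165 and 203 CPM in run 2 and 161 and 188 CPM in run 3.

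The calls from F25 to F29 and from T31 to T37 were set side by side. Of the 37 that rose from F25 to F29, 1 also rose from T31 to T37, 35 were not called in the later step and rank 113 fell in it. Another 18 rose in the later step and were not called in the earlier, rank 84 fell in the earlier step and rose in the later, and 64 genes were called in neither. Of those 64, 49 were called in the comparison of T37 and T42 pups with F25, F27 and F29 fetuses. The difference between the steps was not tested gene by gene, and the matching counts over all genes tested are not given here. The calls also moved with single animals left out, with 22 to 33 genes rising in the earlier step and 15 to 30 in the later. A split of the set by step is therefore not read from these counts.

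From T37 to T42, both in run 3, 0 genes were called higher (0.0453%) and 0 lower (0%). At an unadjusted p under 0.05, 16 genes passed, all higher at T42, against 8.32% of all genes tested. limma-voom and DESeq2 each called 0. The median change was 0.40 and 93 genes had a change above 0. Every T42 library was above every T37 library in 23 genes (4.36%) and below in 3 (7.5%). Among F20, F23, T31, T37 and T42 in run 3 the highest mean was at T42 in 89 genes (17.2%), at T37 in 24 (13.7%) and at T31 in 7 (15.7%). The means went up from T31 to T37 and again to T42 in 81 genes (22.6%). The gene at rank 120 was among the 7, with 302 to 582 CPM at T37 and 219 to 290 CPM at T42.

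**Figure D3:**
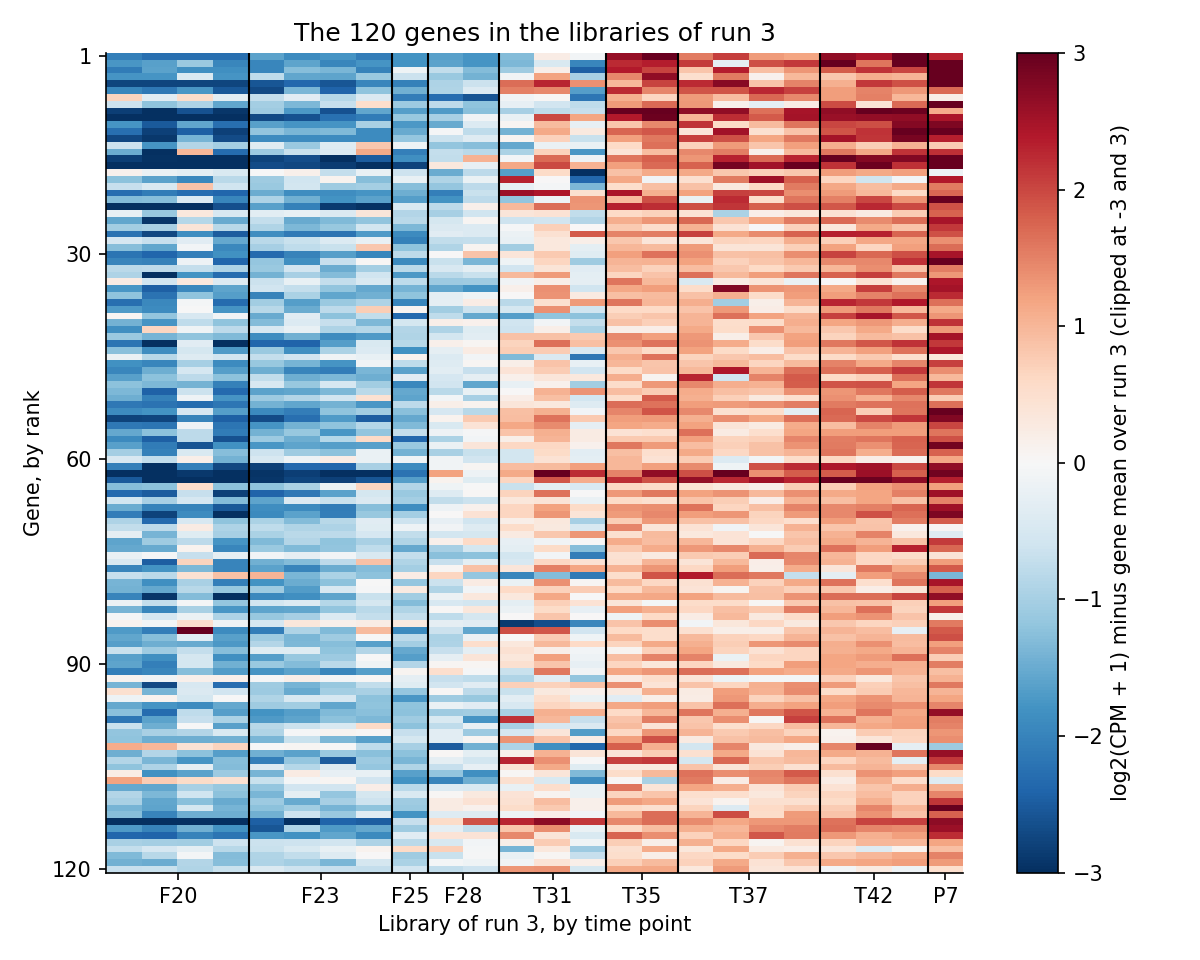
Levels of the 120 genes in the 24 libraries of run 3, with genes from rank 1 at the top to rank 120 at the bottom and libraries grouped by time point. Colour gives log2(CPM + 1) minus the mean of the gene over the run, from blue (lower) to red (higher), clipped at -3 and 3. T35, T37, T42 and P7 columns are mostly red and F20 to F28 columns mostly blue, while T31 columns are mixed.

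The comparisons above share animals with each other, since F29, T31 and T37 each enter more than 1 of them. They are given side by side in the plot of fold changes, and their likeness is not a result.

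**Figure D4:**
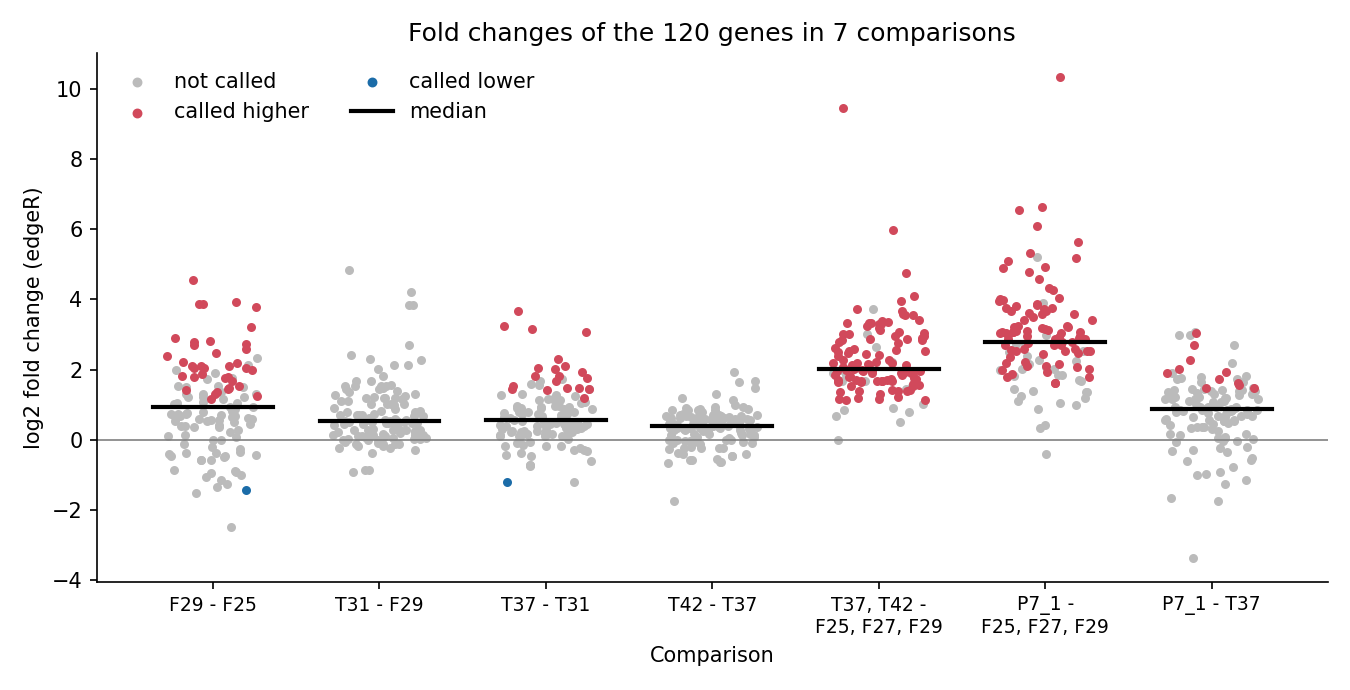
log2 fold changes of the 120 genes in 7 comparisons, 1 point per gene, from edgeR's quasi-likelihood test. Red points were called higher, blue points lower and grey points were not called, and black lines give the medians. The medians are 0.94, 0.55, 0.56, 0.40, 2.01, 2.79 and 0.87 from left to right.

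P7_1 was the 1 preterm pup outside the choice, and the test assumes that it varies like the other groups. Against the F25, F27 and F29 fetuses, 86 genes were higher in P7_1 (3.11% of all genes tested) and 0 lower (1.49%), with a median of 2.79. At an unadjusted p under 0.05, 111 genes passed (17.5% of all genes tested), 0 of them with lower levels in P7_1. limma-voom and DESeq2 each called more genes of the set higher than this fit. The shares of all genes that they called are not given here. The largest changes were 10.33 at rank 2 (SE 1.43), 6.64 at rank 4 (SE 1.21), 6.55 at rank 31 (SE 1.17), 6.09 at rank 1 (SE 0.74) and 5.62 at rank 5 (SE 0.81). This comparison and that of the term pups share the fetal animals, so that their medians of 2.79 and 2.01 are only given side by side. A rise before birth counts in both.

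The direct comparison of P7_1 with the T37 pups asked whether the preterm level differed from the term level at a similar postnatal age. P7_1 was 7 days and the T37 pups were 6 days past delivery. The fit called 11 genes of the set higher in P7_1 (0.926% of all genes tested) and 0 lower (1.09%). At an unadjusted p under 0.05, 45 genes passed, 43 of them higher in P7_1 and 2 lower, against 15.4% of all genes tested. The median difference was 0.87, against -0.05 for all genes tested, and 100 genes had a difference above 0. The number called was larger in run 3 alone and smaller without the run term or without T37_46. The shares of all genes called under these settings are not given here, so the number is not read as a trait of the set. P7_1 was above every T37 library in 78 of the 120 genes (23.1%) and below every one in 13 (30.6%). Against the older T42 pups it was above every library in 82 genes (30.6%) and below in 21 (30.7%).

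The genes called were at ranks 3, 34, 40, 42, 54, 58, 68, 72, 103, 110 and 111, and in each P7_1 was above every T37 and every T42 library. The largest difference was 3.03 at rank 111 (SE 0.68, adjusted p = 0.0146, edgeR's quasi-likelihood test). That gene had 3.83, 1.27, 3.6 and 4.14 CPM in the T37 libraries, 4.09 to 7.36 CPM in the T42 libraries and 24.8 CPM in P7_1. Rank 34 had 3.14 to 6.34 CPM at T37 and 30 CPM in P7_1, a difference of 2.71 (SE 0.42, adjusted p = 0.000618, edgeR's quasi-likelihood test).

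Rank 42 was the most abundant gene of the 11, with 346, 156, 246 and 324 CPM at T37 and 787 CPM in P7_1. Rank 103 had 17.9 to 29.3 CPM at T37, 27.4 to 41.1 CPM at T42 and 83.4 CPM in P7_1, a difference of 1.93 (SE 0.36). Rank 58 differed by 2.02 (SE 0.35) and rank 3 by 2.28 (SE 0.59), where rank 3 had 165 CPM in P7_1 and 64.8 CPM in the highest T37 library. The gene at rank 9 was not called, with a difference of -1.27 (SE 0.48). It had 35.7 CPM in P7_1, below every T37 and T42 library, although it had 216 and 129 CPM in the P7 libraries of run 2.

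The plot of 4 genes shows how differently members of the set reached their postnatal levels. Rank 1 was at most 0.917 CPM in every fetal library, 0.95 to 7.59 CPM in the newborns and at least 8.81 CPM in every older term pup. Rank 84 was high at F20, low at T31 and high again, and it was not alone in a low level at T31. Among F20, F23, T31, T37 and T42 in run 3, the lowest mean was at F20 in 87 genes, at F23 in 22 and at T31 in 11. The matching shares of all genes tested are not given here. Rank 113 was low at F20 and F23, had already risen at F29 and differed between runs. Rank 120 was at 557 CPM or more in 4 of the 6 newborns.

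**Figure D5:**
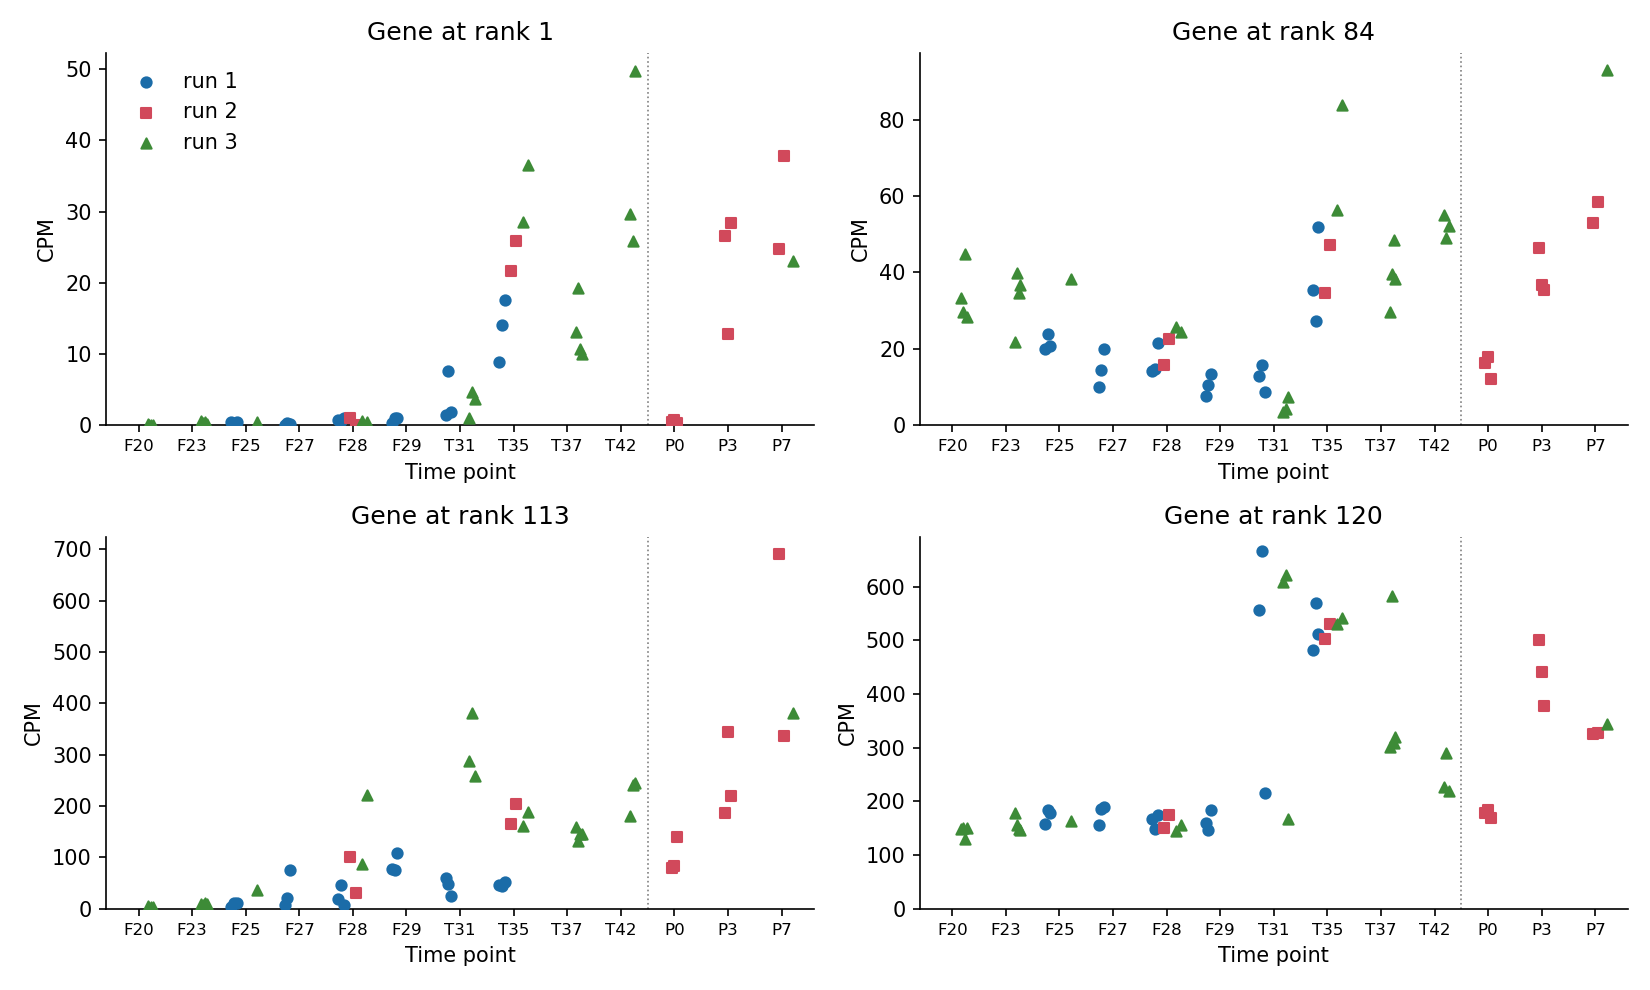
CPM of the genes at ranks 1, 84, 113 and 120 in every library, by time point, 1 point per library and 1 colour and marker per run, with preterm groups to the right of the dotted line. Rank 1 is at most 0.917 CPM in any library of F20 to F29. The T31 points of rank 120 lie at 557 to 666 CPM except for T31_15 at 216 CPM and T31_18 at 166 CPM.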

How the data were processed

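The deposited table holds whole-number read counts per Ensembl gene and library, without normalization. The authors prepared QuantSeq FWD libraries from total lung RNA, sequenced them single-end in 3 runs and removed adapters (BBduk). STAR was used for alignment against OryCun2.0 and HTSeq for the counting. FastQC, STAR, HTSeq and OryCun2.0 are also named in the submitters' processing notes. Tool versions are not given in the sources used here. Each library was mapped from its labels to an animal, time point and run, with 0 columns left unmapped and 0 pairs of identical libraries. Pups came from different dams at each time point per the study's methods, and the animal was the replicate.

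The 120 genes, the lists and the tests were chosen with earlier results of these data known. Tests used edgeR 4.0.16 in R 4.3.3 (quasi-likelihood test, TMM, group and run as terms) in 1 library from each of 33 animals, with the run 3 library where an animal had both. Genes needed 0.5 CPM in at least 3 libraries. p-values were adjusted by Benjamini-Hochberg over all 15440 genes tested. The alternatives were limma-voom (limma 3.58.1), DESeq2 1.42.0, library totals in place of TMM, no filter, at least 10 counts in every library, no run term, the run 1 library of repeated animals, single runs, and each animal left out. The study states limma-voom for its own tests. The procedure was tested on simulated data.

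Genes named with values were to be the largest gaps with a symbol, the 5 largest called changes in each direction per comparison, members of pathway and cell type lists, and the genes next to the limit of the choice. Of 29587 identifiers, 0 matched a symbol, so that the lists could not be applied and genes are given by rank. Values at ranks 1 and 2 outside those changes and the abundant genes at ranks 23, 42, 52 and 63 were added after their values were seen. Intervals of pooled rates are exact at 95% and, since reads carry no molecular identifiers, cover counting error only. Python 3.11.15 with scipy 1.17.1 gave the intervals and matplotlib 3.10.9 the figures.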

Additional observations from a re-analysis of the deposited data

Results flagged for a closer look

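The share of counts in the set and the CPM of the genes at ranks 1, 2, 84, 113 and 120 were screened for animals far from the rest of their group, in the groups of 4 to 6 libraries, by Dixon's gap ratio at its 95% limit. Of 24 groups of values tested, 6 were marked. The nominal rate of the limit is 1 in 20, but the screen marks more than that in these data. Over all genes tested it marked 9.91% at F20, 8.63% at F23, 7.56% at T31 and 8.49% at T37. For rank 1, F20_1 had 0.155 CPM against 0 in the other F20 libraries, a difference of 1 count. For rank 2, T31_10 had the highest newborn value, 11.4 CPM, and T37_27 the lowest T37 value, 2.25 CPM. For rank 113, F23_22 was lowest of its group at 6.05 CPM. For rank 120, F20_35 was lowest at 129 CPM and T37_27 highest at 582 CPM.

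Over all 120 genes the same screen, made after seeing the data, placed F20_35 apart as the highest F20 library in 18 genes, against 3.11% of all genes tested. F23_23 was apart as the highest F23 library in 8 genes (2.27%) and T31_10 as the highest newborn in 8 (1.11%).

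The gain over the fetal animals differed between the preterm pup P7_1 and the T37 pups in 11 genes of the set, all higher in P7_1. The test of the difference was the direct contrast of P7_1 with T37, in which the fetal animals drop out. P7_1 is 1 animal, and the number of genes called fell without T37_46 and also without the run term.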

How the results depend on the processing

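No change of a named gene that was called changed its sign under any alternative run. Requiring at least 10 counts in every library left 53 of the 120 genes in the test, and with fewer genes tested the counts called higher were 19 from F25 to F29, 10 from T31 to T37, 49 for the T37 and T42 pups over the fetuses, 42 for P7_1 over the fetuses and 5 for P7_1 over T37. From F29 to T31 that filter gave 2 genes higher, no filter 6, DESeq2 15, no run term 19, and the run 1 library of repeated animals or run 1 alone 1 each. From F25 to F29 the number that fell was 0 with limma-voom, with the run 1 library and in run 1 alone, and 2 with DESeq2, with library totals and without the run term. From T31 to T37 it was 0 with library totals and without the run term. P7_1 over T37 gave 5 without the run term and 17 in run 3 alone. The cause of these shifts was not tested, except for the smaller number of genes under the strict filter. Shares of all genes called under these settings are not given here. With library totals the median of all genes shifted to -0.14 from F25 to F29, 0.18 from T31 to T37 and -0.13 for P7_1 minus T37.

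With each animal left out in turn, 22 to 33 genes rose and 0 to 1 fell from F25 to F29, 0 to 16 were higher at T31 than F29, 15 to 30 rose and 0 to 1 fell from T31 to T37, and 0 to 1 rose from T37 to T42. The counts were 83 to 104 for T37 and T42 over the fetuses, 80 to 92 for P7_1 over the fetuses and 6 to 10 for P7_1 over T37. The shares of all genes called with an animal left out are not given here. Leaving out a library of run 2 kept 100 to 116 of the 120 genes in the choice, with the fewest without F28_9. TMM scaling kept 111, a pseudocount of 0.5 kept 113 and a floor of 3.6 kept 84.

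No paired analysis was possible because the groups compared share fewer than 2 replicate numbers. At these depths 0.5 CPM is about 3 to 4 counts, so that changes of genes near that level are imprecise.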
